A study of Rattus norvegicus with 6 samples.

Results

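Transcripts of the core steroid-making enzymes and of the cholesterol carrier StAR were compared between adrenal glands of 2 rat strains. The set was defined as every probe set annotated, alone or jointly, to Star, Cyp11a1, Cyp11b1, Cyp11b2, Cyp11b3, Cyp21a1, Hsd3b1, Fdx1, Fdxr or Por. It held 15 of the 8740 probe sets of the array that were not controls. Of the 10 genes, 9 had at least 1 probe set, and Fdxr, which encodes the reductase that feeds electrons to adrenodoxin, had 0 under this annotation. A probe set is a group of short oligonucleotides on the array that together give 1 intensity, in arbitrary units, for a transcript. The glands came from the Spontaneously Hypertensive Rat (SHR), an inbred line with inherited high blood pressure, and from the Wistar-Kyoto rat (WKY), its usual normotensive comparison, with 3 arrays each (Affymetrix RG-U34A, total RNA). No treatment, age or sex stands in the labels used here, and they do not say whether a sample was 1 animal or a pool. The p-values therefore measure the spread among these arrays alone, and that spread may be technical.

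The adrenal cortex makes steroid hormones from cholesterol. StAR moves cholesterol to the inner mitochondrial membrane, where CYP11A1 cuts its side chain to give pregnenolone, and 3-beta-hydroxysteroid dehydrogenase turns pregnenolone into progesterone. CYP21A1 then hydroxylates progesterone in the endoplasmic reticulum, and the mitochondrial CYP11B enzymes finish corticosterone, the main glucocorticoid of the rat, in the zona fasciculata and aldosterone in the zona glomerulosa. The mitochondrial enzymes receive electrons through ferredoxin reductase and adrenodoxin (Fdxr and Fdx1), and CYP21A1 receives them from cytochrome P450 oxidoreductase (Por).

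Which gene a probe set reads was not always settled. Of the 15, 10 named 1 gene and 5 were shared. Among the Cyp11b genes, D00568_s_at was shared by Cyp11b1 and Cyp11b2, D11354_s_at was shared by Cyp11b1 and Cyp11b3, and D14097cds_s_at named Cyp11b2 alone. No probe set named Cyp11b1, the 11-beta-hydroxylase of corticosterone synthesis, or Cyp11b3, a close relative, by itself. RefSeq also lists Cyp11b3 as an older synonym of Cyp11b2. All 3 probe sets of Hsd3b1 were shared, S63167_s_at with Hsd3b3 and both L17138_at and rc_AI235576_s_at with Hsd3b2 and Hsd3b3. In RefSeq the genes Hsd3b2, Hsd3b3 and Hsd3b1 lie side by side with 0 other annotated genes between them. Cyp11b1, Cyp11b3 and Cyp11b2 lie on 1 chromosome with 2 other annotated genes between the first and the last.

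Hsd3b1 and Hsd3b3 are nearly identical in the stretches just before their starts, which are shown because no probe set separated the pair. The last 60 bases before each start (RefSeq, GRCr8, minus strand, 5′ to 3′) are at chr2:188864695-188864754 for Hsd3b1 and chr2:188832735-188832794 for Hsd3b3, with the base that differs in capitals.
Hsd3b1: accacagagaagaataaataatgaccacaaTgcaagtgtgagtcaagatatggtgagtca
Hsd3b3: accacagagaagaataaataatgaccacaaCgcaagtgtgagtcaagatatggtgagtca
Counted from the 5′ end of these 60 bases, the substitution from Hsd3b1 to Hsd3b3 is T31C, and it was the 1 difference over the whole 250 bases before the start. Set against Hsd3b1 or Hsd3b3 base by base with no gaps, the stretch before the Hsd3b2 start differed at 190 of the 250 bases. Unlike those of Hsd3b1 and Hsd3b3, that stretch lay inside the annotated gene. Because no alignment was made, this count does not measure how far the sequences have diverged.

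RefSeq's promoter table held 6 of the 10 genes, namely Cyp11a1, Cyp21a1, Hsd3b1, Fdx1, Fdxr and Por. The 250 bases before each start were searched on both strands for AGGTCA, the half-site at the core of elements bound by the adrenal nuclear receptor SF-1 and by other nuclear receptors. Matches were found for 4 of the 6, Cyp11a1 (2 matches), Cyp21a1, Fdx1 and Por (1 each), while 14.1% of all 33465 such windows held one. The Cyp11a1 matches lay at -229 to -224 and at -95 to -90 from the start, the Cyp21a1 match at -215 to -210, the Fdx1 match at -201 to -196 and the Por match, on the opposite strand as TGACCT, at -217 to -212. The longer CAAGGTCA, which contains the half-site, was in 0 of the 6 and in 1.33% of all windows. TATAAA, the TATA box, was found in Cyp21a1 at -32 to -27 and in 12.9% of all windows. A match describes letters in these windows only. The Por window, and with it the Por match, lay inside the annotated gene, and so did the TATAAA of Cyp21a1. The windows shown are those of the side-chain cleavage enzyme, of its electron donor and of the 21-hydroxylase, with the half-site in capitals (GRCr8, 5′ to 3′). They are chr8:67318415-67318664 on the plus strand for Cyp11a1, chr8:61183646-61183895 on the minus strand for Fdx1 and chr20:4028141-4028322 on the plus strand for Cyp21a1, the last being the 182 bases that lie outside the annotated gene.
Cyp11a1: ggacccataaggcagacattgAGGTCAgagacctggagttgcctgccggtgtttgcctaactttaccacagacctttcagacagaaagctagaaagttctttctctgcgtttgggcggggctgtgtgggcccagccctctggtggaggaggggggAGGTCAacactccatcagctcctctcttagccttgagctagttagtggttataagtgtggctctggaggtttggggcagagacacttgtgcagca
Fdx1: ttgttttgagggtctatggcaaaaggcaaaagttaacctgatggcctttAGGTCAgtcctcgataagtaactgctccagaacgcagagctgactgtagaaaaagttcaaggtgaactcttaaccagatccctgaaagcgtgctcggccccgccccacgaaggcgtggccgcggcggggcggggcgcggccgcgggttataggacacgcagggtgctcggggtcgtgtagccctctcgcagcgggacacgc
Cyp21a1: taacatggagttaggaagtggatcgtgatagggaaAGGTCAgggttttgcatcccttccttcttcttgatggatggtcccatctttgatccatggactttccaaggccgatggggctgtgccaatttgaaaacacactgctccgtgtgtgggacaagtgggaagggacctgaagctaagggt

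The 6 arrays had medians between 798.3 and 899.5. Across probe sets, which are no replicates of each other, their log2 values correlated pairwise at 0.911 to 0.956. The settings files recorded 2 groups of hybridization times, compared by time of day. What the hybridization time marks is not stated, and for SHR replicate 2 it came a few minutes after the recorded scan. SHR replicate 1 and all WKY arrays belonged to the earlier run, and SHR replicates 2 and 3 to the later. The files also recorded all 3 WKY scans before all 3 SHR scans, so the order of scanning and the strain cannot be told apart. SHR replicate 2 had a 3′ to 5′ ratio of 4.21 for the hexokinase control, which rises as RNA degrades, against 1.96 to 2.54 in the other 5 arrays. The other controls did not set SHR replicate 2 apart. The GAPDH ratio ran from 0.901 to 1.14, with SHR replicate 2 at 0.947. The beta-actin ratio ran from 1.19 to 1.38, with SHR replicate 2 at 1.35.

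The question was whether the steroid-making machinery differed in transcript level between the hypertensive and the normotensive strain. No probe set of StAR, the steroid hydroxylases, 3-beta-hydroxysteroid dehydrogenase, adrenodoxin or the oxidoreductase passed the adjusted threshold given below, in either direction. With 3 arrays per strain this does not show that their levels were equal. All 15 were bright enough to be tested. The test was limma, a linear model that shares information on the spread across probe sets, with p-values adjusted over all of them by Benjamini and Hochberg. It called 0 of them at an adjusted p under 0.05, against 1.95% of the 5244 probe sets tested (102 calls, 1.07% higher and 0.877% lower in SHR). At an unadjusted p under 0.05 there was 1 of 15, D00568_s_at of Cyp11b1 and Cyp11b2, against 13.9% of all tested. Log2 changes, SHR minus WKY on the log2(intensity + 181.5) scale used throughout, ran from -0.85 to 0.24, with 10 of the 15 below 0. Their median was -0.10, beside -0.007 over all tested probe sets. The median size of change without sign was 0.18 in the set and 0.22 over all.

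The 95% intervals were unadjusted, taken for each probe set by itself, and rest on the spread among these arrays. They do not bound a difference between animals of the 2 strains. In 12 of the 15 probe sets the interval lay within a 2-fold change in either direction. The others were those of Cyp21a1, of Cyp11b1 and Cyp11b2 jointly, and of Cyp11b2 alone. Of the 15, 9 lay among the brightest 2% of the array by mean log2 value, and whether signal is compressed at that brightness was not tested.

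**Figure D1:**
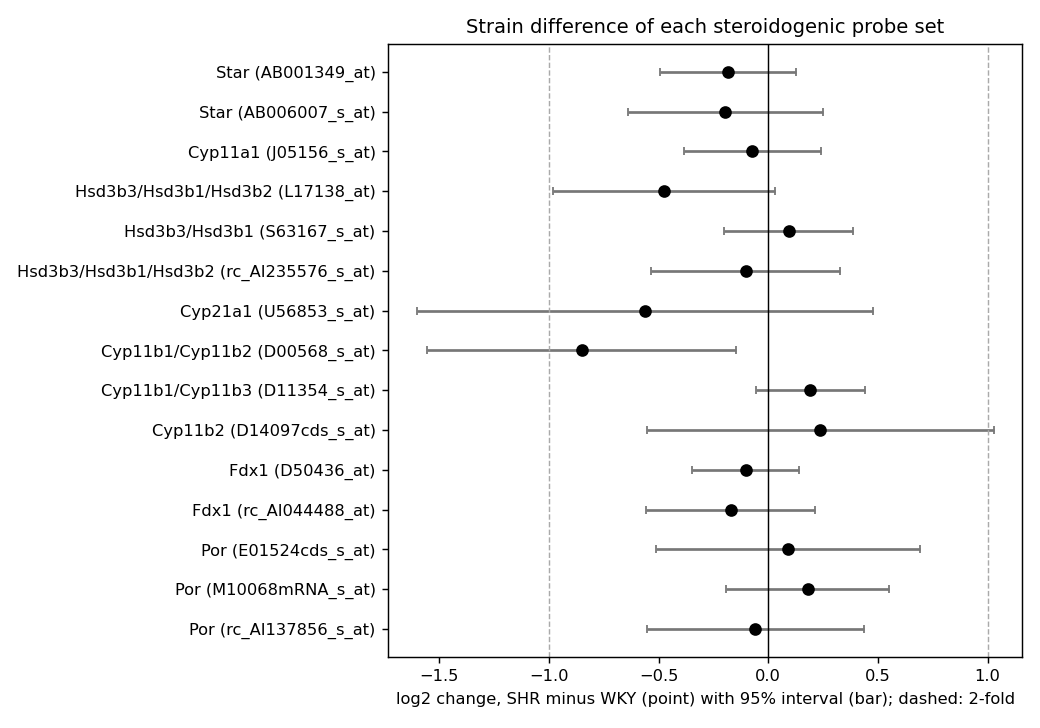
Log2 change, SHR minus WKY, of the 15 probe sets (point) with its 95% interval (bar); dashed lines mark a 2-fold change. The interval of the Cyp11b1/Cyp11b2 probe set, at -0.85, is the 1 that does not cross 0, before adjustment.

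Star, whose product delivers cholesterol to CYP11A1, had 2 probe sets of its own. In AB006007_s_at the SHR arrays, replicates 1 to 3, read 72599.5, 59059 and 93172 and the WKY arrays 77749, 73500.1 and 105013. The strains overlapped, with the lowest array in SHR (replicate 2) and the highest in WKY (replicate 3). The log2 change was -0.20 ± 0.19 (SE; 95% interval -0.64 to 0.25; limma adjusted p = 0.707). In AB001349_at the values were 48914, 48291 and 61881 in SHR against 63256, 52598 and 64550.4 in WKY, means of 53029 ± 7673 and 60135 ± 6559 (SD, n = 3 each). SHR replicate 3 lay above WKY replicate 2, so the strains overlapped here too, and the change was -0.18 ± 0.13 (-0.49 to 0.13; adjusted p = 0.594). The change in AB006007_s_at depended on single arrays, at -0.04 without SHR replicate 2 or without WKY replicate 3 and at -0.36 without SHR replicate 3. That in AB001349_at was -0.30 without SHR replicate 3.

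Cyp11a1, which encodes the enzyme that commits cholesterol to steroid synthesis, had the 1 probe set J05156_s_at. It read 78341, 78031 and 98045 in SHR and 75822, 93521 and 98343 in WKY. The highest SHR array and the highest WKY array were nearly level, and the lowest of all 6 was WKY replicate 1. The means were 84806 ± 11467 and 89229 ± 11858 (SD, n = 3 each), which amounted to a log2 change of -0.07 ± 0.14 (SE; -0.39 to 0.24; limma adjusted p = 0.859).

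The 3-beta-hydroxysteroid dehydrogenase genes gave 3 shared probe sets. S63167_s_at, read by Hsd3b1 and Hsd3b3, stood at 69571, 63063 and 72495 in SHR and at 55721, 62336 and 75346 in WKY. The narrow SHR range lay inside the WKY range, and the change was 0.09 ± 0.13 (SE; -0.20 to 0.39; limma adjusted p = 0.798). For rc_AI235576_s_at, which also names Hsd3b2, values were 91191, 76024 and 93742.5 in SHR and 73044, 89210.4 and 123785 in WKY. WKY replicate 3 was the highest and WKY replicate 1 the lowest, so that the SHR arrays again lay between them (-0.10 ± 0.19; -0.53 to 0.33; adjusted p = 0.855). The dimmer L17138_at, annotated to the same 3 genes, read 983, 1234 and 971 in SHR against 1209, 1538 and 1957 in WKY. SHR replicate 2 alone reached above the lowest WKY array. The change was -0.48 ± 0.22 (-0.98 to 0.03), and it did not pass (adjusted p = 0.393).

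Cyp21a1, which encodes the 21-hydroxylase, had the largest spread within strains of the set, taken over both strains together. U56853_s_at read 46241, 20377 and 67039 in SHR and 37077, 60873 and 90478 in WKY. The highest SHR array was 3.29 times the lowest, and in WKY the factor was 2.44. Within WKY the factor was larger, at 3.09, for D14097cds_s_at of Cyp11b2. The spread within strains, an SD of 0.77 on the log2 scale, was larger than that of 95.7% of the tested probe sets. The strain change was -0.56 ± 0.45 (SE; -1.60 to 0.48; limma adjusted p = 0.633). It moved with single arrays, to -0.08 without SHR replicate 2, the array with the raised hexokinase ratio, and to -0.25 without WKY replicate 3. In the other direction it grew to -0.94 without SHR replicate 3 and to -0.89 without WKY replicate 1. Whether RNA quality had a part in the low Cyp21a1 value of SHR replicate 2 was not tested.

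The Cyp11b probe sets did not move together. D00568_s_at, shared by the corticosterone enzyme Cyp11b1 and the aldosterone synthase Cyp11b2, read 56992, 33937 and 76503 in SHR and 70026, 100711 and 123588 in WKY. SHR replicate 3 lay above WKY replicate 1, and otherwise the WKY arrays were higher. The means were 55810.5 ± 21308 and 98108 ± 26876 (SD, n = 3 each). The log2 change was -0.85 ± 0.31 (SE; -1.56 to -0.15), and after adjustment over all probe sets it did not pass (limma adjusted p = 0.261). Without SHR replicate 2 the change was -0.53 (adjusted p = 0.490), and without SHR replicate 3 it was -1.12 (0.175).

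D11354_s_at, shared by Cyp11b1 and Cyp11b3, had the opposite sign. It read 59119, 59454 and 63816 in SHR and 54433, 47114 and 58594.5 in WKY. All 3 SHR arrays lay above all 3 WKY arrays, the 1 case among the 15, where 20.7% of all tested probe sets showed no overlap in either direction and 10.2% did so with SHR higher. The gap between the nearest arrays was small, and the change of 0.19 ± 0.11 (SE; -0.06 to 0.44) did not pass (limma adjusted p = 0.473).

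Cyp11b2 by itself, in D14097cds_s_at, read 4155, 3874 and 3825 in SHR and 5969, 3129 and 1934 in WKY. The SHR arrays were close to each other and lay inside the WKY range. The WKY arrays fell in the reverse of their order in D00568_s_at, with replicate 1 highest and replicate 3 lowest. The mean was 3951 ± 178 in SHR and 3677 ± 2073 in WKY (SD, n = 3 each), and the change was 0.24 ± 0.34 (SE; -0.55 to 1.03; limma adjusted p = 0.813). Without WKY replicate 3 the sign turned, to -0.13.

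**Figure D2:**
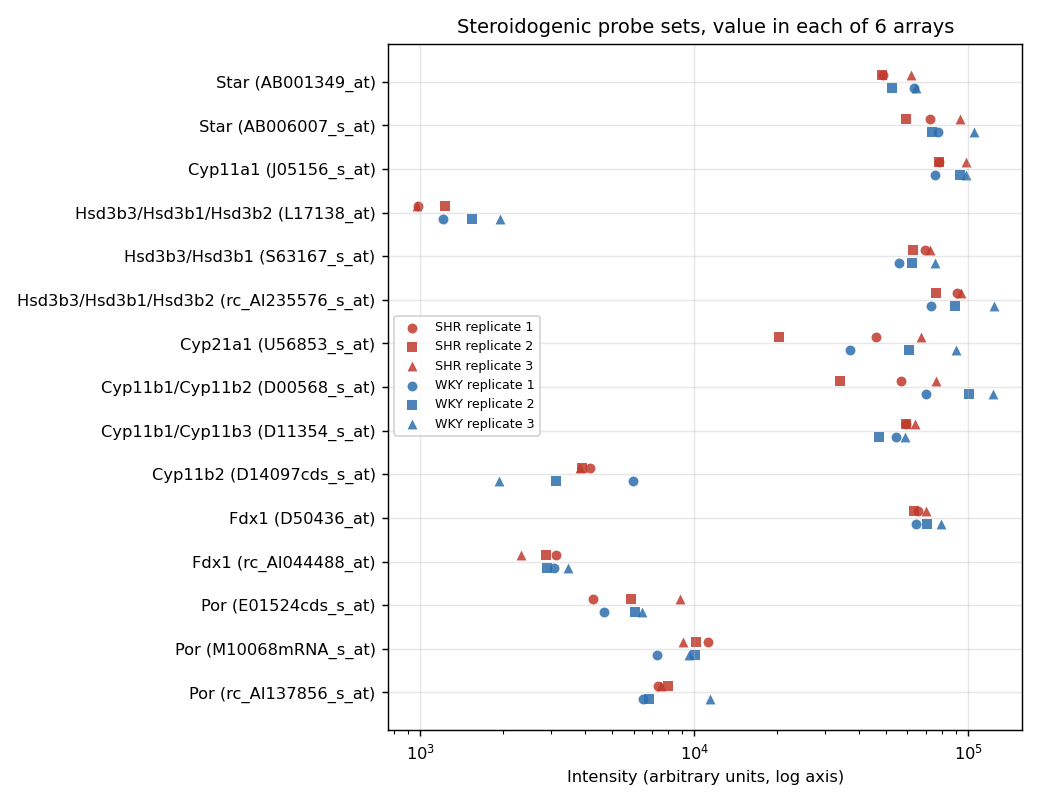
Intensity (log axis, arbitrary units) of each of the 15 probe sets in the 3 SHR arrays (red) and the 3 WKY arrays (blue), with the replicate number given by the marker. The strains overlap in every row but D11354_s_at, and SHR replicate 2 is lowest for Cyp21a1 (20377) and for Cyp11b1/Cyp11b2 (33937). Heights of different probe sets cannot be set against each other.

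Electron donors of the P450 enzymes showed small changes. Fdx1, which encodes adrenodoxin, read 65538, 63541 and 70265 in SHR and 64514, 70668 and 79506 in WKY by D50436_at. The strains overlapped within a narrow range, and the change of -0.10 ± 0.11 (SE; -0.35 to 0.14) had one of the tightest intervals of the set (limma adjusted p = 0.720). Its second probe set, rc_AI044488_at, ran from 2330.5 to 3124 in SHR and from 2886 to 3443 in WKY (-0.17 ± 0.17; -0.56 to 0.21; adjusted p = 0.704). That change was -0.0014 once the hybridization run was blocked and -0.06 without SHR replicate 3.

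Por, the microsomal reductase that serves CYP21A1, had 3 probe sets of its own. M10068mRNA_s_at, the brightest of these, read 11244, 10122 and 9072 in SHR and 7326, 10086 and 9533 in WKY. The ranges overlapped, with the lowest value in WKY replicate 1, and the change was 0.18 ± 0.16 (SE; -0.19 to 0.55; limma adjusted p = 0.675). For rc_AI137856_s_at the SHR arrays kept between 7375 and 8047, while WKY replicate 3 stood at 11391 above the other WKY arrays at 6514 and 6842 (-0.06 ± 0.21; adjusted p = 0.937). E01524cds_s_at ran from 4262 to 8895.5 in SHR and from 4688 to 6461 in WKY (0.09 ± 0.26; -0.51 to 0.69; adjusted p = 0.919). That last value had no stable sign, at -0.40 once the hybridization run was blocked and -0.18 without SHR replicate 3.

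Across the set the arrays of a strain differed in a shared way. WKY replicate 3 was the highest of the 6 arrays in 11 of the 15 probe sets, among them both of Star, Cyp11a1, Cyp21a1, all 3 of the Hsd3b genes and both of Fdx1. It was the highest WKY array in 13 of 15 (86.7%), while over all tested probe sets it was so in 37.9%. WKY replicate 1 was the lowest WKY array in 10 of 15, and in 38.3% of all tested. In SHR, replicate 3 was highest in 10 of 15 (29.0% of all tested) and replicate 2 lowest in 8 (28.3%). These counts describe 6 arrays and carry no test, and several probe sets share a gene. Cyp21a1 and D00568_s_at swung the widest, from -1.24 and -1.06 below their own mean over the 6 arrays in SHR replicate 2 to 0.90 and 0.80 above it in WKY replicate 3, on the log2 scale. Scarb1, the lipoprotein receptor that supplies cholesterol to the cortex and is no member of the set, was likewise highest in WKY replicate 3 (90965) and in SHR replicate 3 (87934) among the arrays of each strain. Nr5a1, the other measured cortex marker outside the set, went the other way, lowest in WKY replicate 3 (7478) and in SHR replicate 3 (8553) among the arrays of each strain.

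**Figure D3:**
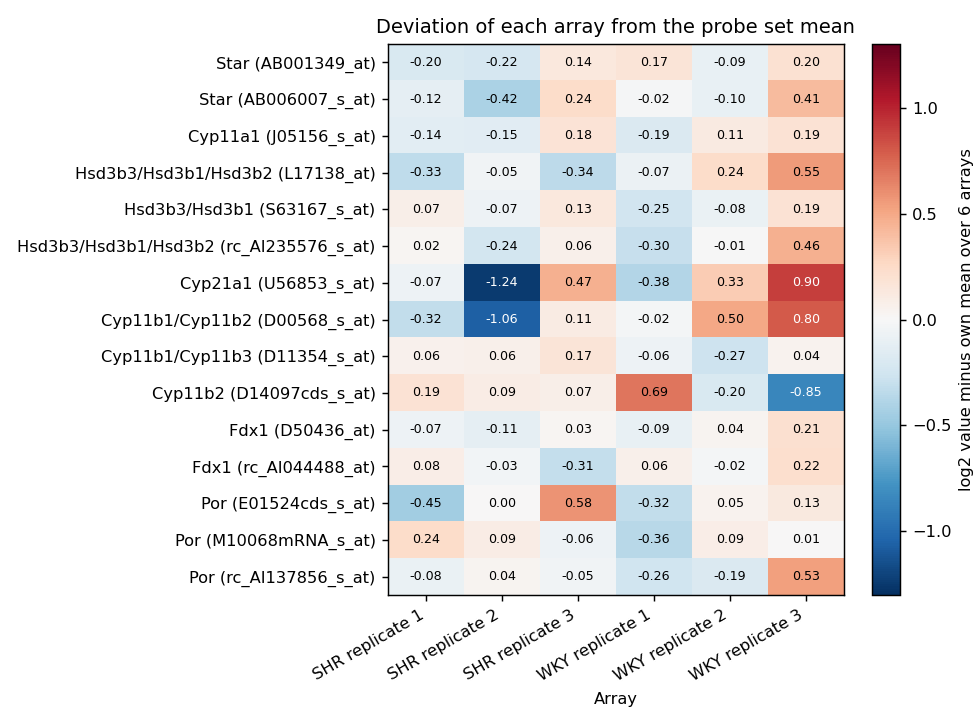
Log2 value of each array minus the probe set's own mean over the 6 arrays (colour and number). WKY replicate 3 is above the mean in every row except Cyp11b2 (-0.85), and SHR replicate 2 is far below it for Cyp21a1 (-1.24) and Cyp11b1/Cyp11b2 (-1.06).

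Ratios within an array, from which the scaling between arrays drops out apart from the pseudocount, were then taken between probe sets of the same gene or family, 11 pairs in all. The log2 ratio of D00568_s_at to D11354_s_at was -0.05, -0.81 and 0.26 in SHR and 0.36, 1.09 and 1.07 in WKY. All SHR arrays lay below all WKY arrays, although SHR replicate 3 and WKY replicate 1 were close. The means differed by -1.04, and the exact two-sided permutation test gave p = 0.1, the smallest that 3 arrays against 3 allow, or 0.55 adjusted over the 11 pairs by Benjamini and Hochberg. The other pair without overlap was L17138_at over S63167_s_at, where SHR stood at -5.90, -5.48 and -5.98 and WKY at -5.33, -5.18 and -5.14 (difference -0.57, exact permutation p = 0.1, adjusted 0.55). In the remaining 9 pairs the strains overlapped. The pairs were chosen after the values were seen, and no share over other pairs of probe sets was taken. Of single tested probe sets, 20.7% showed no overlap in either direction. The 2 Star probe sets kept the same ratio in both strains, with a mean of -0.48 ± 0.17 in SHR and -0.49 ± 0.20 in WKY (SD, n = 3 each).

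**Figure D4:**
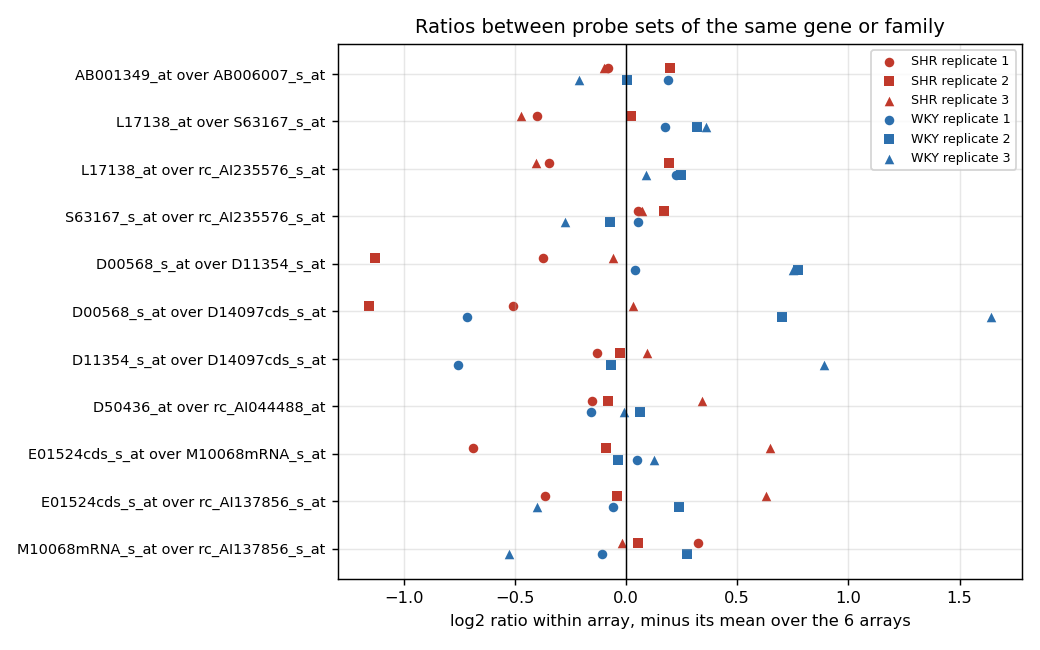
Log2 ratio of 2 probe sets within each array, minus its mean over the 6 arrays, for the 11 pairs that share a gene or belong to the Cyp11b family (SHR red, WKY blue). The strains do not overlap for D00568_s_at over D11354_s_at (difference -1.04) and for L17138_at over S63167_s_at (-0.57). The exact permutation test gives p = 0.1 for each (adjusted 0.55). That is the smallest p that 3 arrays against 3 allow, so no pair could have passed 0.05.

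With the recorded hybridization run as a block limma called 0 of the 15, and within the earlier run by itself also 0. Both fits set 1 SHR array, replicate 1, against the 3 WKY arrays, so these counts say little. The change of D00568_s_at was -0.74 in both fits (adjusted p = 0.702 and 0.620), and that of Cyp21a1 was -0.35. The later run held SHR arrays only and gave no value of its own.

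The surrounding pathway was read from 4 lists, 1 probe set per gene. Among 12 tested genes of cholesterol supply, 1 rose, 0 fell and 11 did not pass, with a median of -0.03. Of these 12, 3 had an unadjusted limma p under 0.05, beside 13.9% of all tested probe sets. The riser was Scp2, which carries sterols within the cell, at 1.59 ± 0.13 (SE; limma adjusted p = 0.00104). Sqle, an enzyme of cholesterol synthesis, stood at -0.70 ± 0.20 (0.146) and Dbi, whose product binds acyl-CoA and the mitochondrial translocator protein, at -0.52 ± 0.21 (0.326). For hormonal and ionic signalling, 0 of 18 genes passed in either direction (4 at an unadjusted p under 0.05, median 0.006). The nearest were Prkar2b, a regulatory subunit of protein kinase A, at 0.67 ± 0.20 (0.162), the angiotensin receptor gene Agtr1a at 0.48 ± 0.16 (0.234) and Prkaca, the catalytic subunit of that kinase, at -0.56 ± 0.20 (0.264).

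Transcription factors gave 0 calls in 14 genes (1 at an unadjusted p under 0.05, median 0.09). Nr0b1, whose product DAX-1 represses steroidogenic genes, stood at 0.85 ± 0.22 (SE; limma adjusted p = 0.122). Nr5a1, which encodes SF-1, was at 0.34 ± 0.15 (0.367) and the orphan receptor gene Nr4a1 at 1.44 ± 0.70 (0.414), with overlap between strains for the latter. Of 13 other steroid enzymes and partners, 2 rose, 0 fell and 11 did not pass (4 at an unadjusted p under 0.05, median 0.18). The risers were the aldo-keto reductases Akr1c3 at 3.85 ± 0.32 (0.00104) and Akr1c14 at 1.73 ± 0.29 (0.0273), and Inha, the inhibin alpha subunit, followed at 0.59 ± 0.13 (0.0732). The 4 lists held 3 risers among their 12, 18, 14 and 13 tested genes. Over all tested probe sets, 1.07% were called higher and 13.9% had an unadjusted limma p under 0.05. The lists were chosen with earlier results of these data known, so setting their counts beside these shares is no test.

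Because whole glands were used, fewer cells of a type and less RNA per cell cannot be told apart. Markers of the cortex outside the set, Nr5a1 and Scarb1, summed to intensities of 67526 to 96487 in SHR and 66837 to 98443 in WKY. For the zona glomerulosa, 5 of 7 listed markers were measured outside the set (Agtr1b, Dab2, Vsnl1, Shh and Kcnk3), with sums of 21724.5 to 29075 in SHR and 24104 to 26610.0 in WKY, and no marker of the zona fasciculata outside the set had a probe set of its own. Both of these sums overlapped between strains, but not every marker in them did. Of the cortex markers Nr5a1 was higher in every SHR array, while Scarb1, which made up most of the sum, overlapped. Of the glomerulosa markers Vsnl1 was higher and Agtr1b lower in every SHR array, and Dab2, Shh and Kcnk3 overlapped. The medulla markers, 12 of 15 measured, summed to 43783 to 54781 in SHR and 58687 to 67127 in WKY, with no overlap and 1 of 11 tested, Dbh, called lower. Capsule and fibroblast markers, 8 of 8 measured, summed to 79511 to 98814 in SHR and 106266 to 122905 in WKY, with 4 called lower. Sums of the red blood cell markers (2 of 3) and of the liver markers (4 of 4) were also lower in every SHR array, at most 39859 against at least 43088 and at most 4362 against at least 4875. The members of these lists did not all move with their sums. Of the medulla markers Slc18a2 was higher in every SHR array, and Th, Ddc, Chgb, Phox2a and Npy overlapped. The rest were lower in every SHR array. Of the capsule and fibroblast markers Sparc and Mgp overlapped, and the rest were lower in every SHR array. Of the liver markers Serpina1 was lower in every SHR array, Ttr was higher in every SHR array, and Alb and Apoa1 overlapped. Of the red blood cell markers Hbb was lower in every SHR array and Alas2 overlapped. Adipocyte, leukocyte, endothelial and kidney sums overlapped. Even so, 1 of 4 tested adipocyte markers, Cfd, was called lower (limma adjusted p = 0.0324), as was 1 of 6 tested leukocyte markers, Cd74 (0.0429). Over all tested probe sets 0.877% were called lower. No overlap between strains was seen in 20.7% of them, and in 10.2% with SHR higher. Setting the marker counts beside these shares is no test. None of these markers was at 0 in all arrays, and the part of other cell types in the values of the set was not tested.

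Probe sets of single genes outside the set were ranked by how closely they followed Star and D00568_s_at over the 6 arrays, by root mean square distance between log2 values centred on each probe set's mean. Of 4302 candidates, the closest to Star (AB006007_s_at) were Rxrb, a retinoid X receptor, at 0.056, Vegfa, the endothelial growth factor, at 0.066 and Lta4h, leukotriene A4 hydrolase, at 0.100, beside a median of 0.38. Rxrb read 2500, 2058 and 3515 in SHR and 2617, 2550.1 and 3504 in WKY, high in replicate 3 of each strain as Star was. The closest to D00568_s_at were Slc22a6, an organic anion transporter, at 0.188, Hsf1, the heat shock factor, at 0.206 and Rrbp1, a ribosome-binding protein, at 0.219 (median 0.65). With this many candidates and 6 arrays some close patterns always occur.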

How the data were processed

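Total RNA of 6 adrenal samples, 3 SHR and 3 WKY by their titles, was read on Affymetrix RG-U34A arrays with 1 colour. The values are linear intensities that the authors deposited, 1 for each probe set on each array. How they were summarised from probes and scaled is not given in the sources used here. Trimmed means (2% at each end) differed by 0.012% between arrays, so values were used as deposited. Settings files deposited by the authors (other values) gave module and order of hybridization and scanning.

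After 59 control probe sets were left out of 8799, probe sets were named from the platform annotation, whose symbols matched the RefSeq GRCr8 gene table (7006 with 1 symbol, 308 with several, 1426 with none). Values were taken as log2(intensity + 181.5), with the 20th percentile of all values as pseudocount, and the 5244 probe sets with a mean above the 40th percentile were tested with limma 3.58.1 (lmFit, eBayes with trend, R 4.3.3, statmod 1.5.0), two-sided, without covariates. P-values were adjusted by Benjamini and Hochberg over all 5244 probe sets, with a threshold of 0.05. The steps were tested on simulated data. On this scale changes of dim probe sets come out too small, and the number of arrays limits the precision.

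The members and the lists were chosen with earlier results of these data known, and the ratios between probe sets after the values were seen. All members were named whatever their values, as were, in each pathway list, genes past the threshold and up to 3 of smallest p. A listed gene was represented by its brightest tested probe set with 1 symbol. Alternatives were quantile or median scaling, pseudocounts of 1 and 4 times the main one, no filter or one at the 60th percentile, eBayes without trend or robust, blocks for replicate number, run and module, and each array left out.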

Additional observations from a re-analysis of the deposited data

How the results depend on the processing

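Under all 18 alternatives 0 of the 15 probe sets of the set were called, with the smallest adjusted p among them between 0.169 (replicate block) and 0.676 (run as a block), all by limma. Of 270 log2 changes recomputed, 261 kept their sign and 9 turned, all with adjusted p of 0.593 or more. These counts overstate stability. Alternatives to the filter or the eBayes step and the replicate block left every change as it was, so no sign could turn there. The run block and the earlier run gave the same changes as each other. The values that turned were Por E01524cds_s_at (-0.40 with the run as a block and the same within the earlier run, and from -0.18 to 0.34 with 1 array left out), Cyp11b2 D14097cds_s_at (-0.13 to 0.64 with 1 array left out), Cyp11a1 J05156_s_at (-0.19 to 0.0018), S63167_s_at (-0.0057 to 0.21), rc_AI137856_s_at (-0.20 to 0.19) and rc_AI235576_s_at (-0.28 to 0.10). The cause was not tested. Among those that kept their sign, the ranges over the alternatives were -0.30 to -0.12 and -0.36 to -0.04 for Star, -0.94 to -0.08 for Cyp21a1, -1.12 to -0.53 for D00568_s_at, 0.11 to 0.26 for D11354_s_at, -0.63 to -0.32 for L17138_at, -0.17 to -0.02 and -0.26 to -0.0014 for Fdx1, and 0.04 to 0.33 for Por M10068mRNA_s_at.

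Over all 5244 probe sets the 102 calls became 60 without the intensity trend, 53 with the replicate block, 20 with the run blocked, 1 within the earlier run (both fits compare 1 SHR array with the WKY arrays), and 36 to 59 with 1 array left out, where fewer samples were fitted. Deviations of same-numbered arrays from their strain means correlated across probe sets at 0.0009, 0.011 and 0.071. The last, for replicate 3, was the highest of all pairings, but not every array correlated best with its own number. Such values cannot settle whether same-numbered arrays were paired, and the main fit took them as unpaired. The module as a block gave 102 calls.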
